A study of Homo sapiens with 9 samples.

Results

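The genes described here build and crosslink the extracellular matrix: collagen chains, the enzymes and the chaperone that modify and fold collagen, lysyl oxidases, laminins with the proteins that link them, and matrix glycoproteins and proteoglycans. They were chosen by name, as 50 gene symbols in 7 groups by role, with earlier results of these data known. A gene was taken from the probe sets that the array annotation gives to its symbol alone. Of the 50 symbols, 48 had such a probe set, and the 48 genes had 126 probe sets, from 1 to 8 per gene, out of 19775 genes and 54613 probe sets in all. COL17A1 and LAMA3 were not analysed here. Each gene is given by its leading probe set, the one with the highest mean signal, and for COL1A1 all 5 probe sets are given. Of the 48 genes, 38 had a mean log2 signal above the median of all probe sets, 5.49, and are called better expressed below, and 10 had a lower one.

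The cells were MDA-MB-231, an established line from a triple-negative breast cancer, in which the series concerns the microRNA miR-34a. They were reverse transfected with a small RNA at 10 nM and lysed 48 h later. There were 3 groups of 3 biological replicates, each on 1 array: AllStar, a negative control RNA, and the mimics Qmimic and Dmimic. All groups therefore share the lipid transfection and the dose, there was no untransfected group, and the labels give neither the sequences of the mimics nor the meaning of their names.

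Collagens are triple helices of 3 chains that are hydroxylated and folded inside the cell, secreted, and then joined covalently outside it by lysyl oxidases. Fibrillar collagens give tissue its tensile strength, while collagen IV and the laminins form the sheets of the basement membrane under epithelia, which an invading carcinoma cell has to cross. Carcinoma cells with mesenchymal features make part of the matrix around them, and most of the fibrillar collagen of a tumour comes from its fibroblasts.

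The mature strand of the microRNA named in the series title is shown because the mimics were made for a study of it. Capitals mark the seed, bases 2 to 8, through which a microRNA pairs with its targets. The sequence is that of RefSeq (GRCh38.p14, chr1:9151735-9151756, minus strand), and it was not matched to either mimic.
hsa-miR-34a-5p: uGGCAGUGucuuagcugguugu

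Of the 38 better expressed matrix genes, 28 were above AllStar on average after Qmimic and 28 after Dmimic, by amounts that did not pass the test. Of all 12717 better expressed genes, 63.0% were above AllStar after Qmimic and 61.6% after Dmimic. Without AllStar replicate 3, an array described below, the counts were 28 and 26 of 38, against 54.9% and 55.4% of all better expressed genes. The median log2 difference from AllStar over the 48 genes was 0.12 for Qmimic and 0.15 for Dmimic, with 32 and 33 genes above 0, against medians of -0.02 and -0.01 over all genes. After cyclic loess scaling of the arrays the medians were 0.02 and 0.10, with 26 and 29 genes above 0. Over the 38 better expressed matrix genes the medians were 0.17 and 0.19, against 0.10 and 0.08 over all genes with a mean above the same median. With all 9 arrays none of the 48 genes was called in any comparison, where a call needs a Benjamini-Hochberg adjusted p from limma under 0.05 over all probe sets and a change of at least 1.5-fold. An unadjusted limma p under 0.05 was reached by 17 genes for Qmimic (19.7% of all genes reached it), by 19 for Dmimic (17.3%), by 23 for the mean of both mimics (24.1%) and by 1 for Qmimic against Dmimic (2.54%). The share of all probe sets called was 0.0% for Qmimic, 0.00549% for Dmimic, 0.0806% for both mimics together and 0.0% between the mimics. In bulk RNA, fewer cells that express a gene and less of its RNA per cell cannot be told apart.

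The arrays themselves can be set in order. In 19 matrix genes all 3 Qmimic arrays lay above all 3 AllStar arrays, where 19.2% of all genes did, and in 20 all 3 Dmimic arrays did, where 17.1% of all genes did. In 3 genes each the mimic arrays lay below all AllStar arrays, where 11.0% of all genes did for Qmimic and 7.13% for Dmimic. Both mimics lay above AllStar without overlap in 16 genes (12.8% of all genes) and below it in 3 (4.21%), which were COL1A2, LAMA4 and LOXL3. Of the 38 better expressed matrix genes, 17 lay above AllStar without overlap for each mimic and 1 below it. Of all 12717 better expressed genes, 3627 lay above it for Qmimic and 3205 for Dmimic, and 1097 and 768 below it. The comparisons of the mimics with AllStar share the AllStar arrays.

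AllStar replicate 3 was unlike the rest. It correlated with the other arrays at 0.974 to 0.981, against 0.993 to 0.998 among the other 8, and it had an interquartile range of 2.99 log2 units against 3.41 to 3.53. In the 38 better expressed matrix genes its median distance from the mean of AllStar replicates 1 and 2 was -0.31, and over all better expressed genes it was -0.29. Without it the medians over the 48 genes were 0.09 for both mimics, against -0.01 and 0.01 over all genes, and over the 38 better expressed genes 0.10 and 0.10, against 0.02 and 0.02. Without it 21 matrix genes lay above AllStar without overlap for Qmimic (22.6% of all genes) and 8 below it (21.1%), and for Dmimic 23 above (22.0%) and 7 below (17.8%). Among the 38 better expressed ones 19 lay above for each mimic, against 4002 and 3688 of all 12717 better expressed genes. Below lay 5 for Qmimic and 4 for Dmimic, against 2901 and 2724. None of the 48 genes was called then either, where 0.54% of all probe sets were called for Qmimic, 0.864% for Dmimic, 0.721% for both together and 0.0806% between the mimics. An unadjusted p under 0.05 was reached in that fit by 16 genes for Qmimic (20.9% of all genes), 18 for Dmimic (21.3%), 19 for both (23.0%) and 7 between the mimics (11.7%), and an adjusted limma p under 0.05 at any fold was reached by 2 genes for Qmimic (2.09% of all genes) and by 3 for Dmimic (3.32%).

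**Figure D1:**
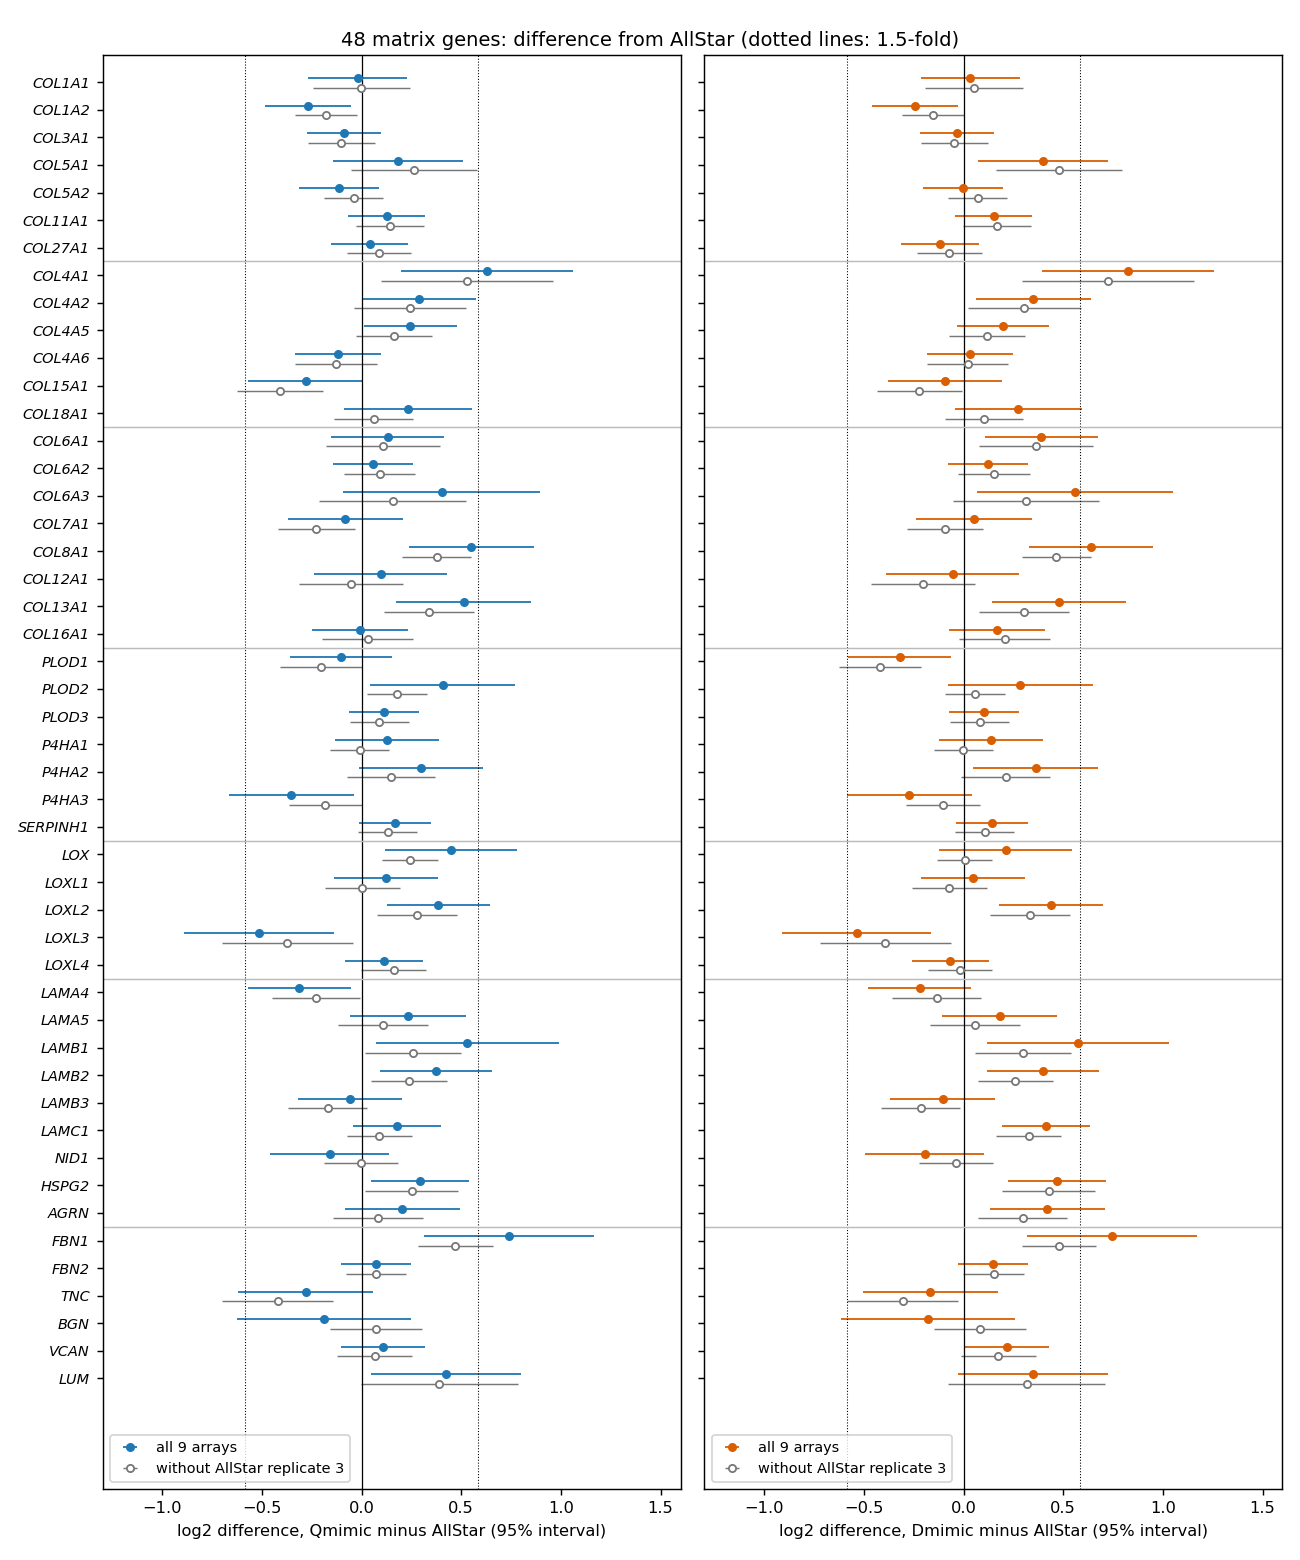
Log2 difference from AllStar with its 95% interval for each of the 48 matrix genes, grouped by role between grey lines, for Qmimic (left) and Dmimic (right). Filled points use all 9 arrays, open points leave out AllStar replicate 3, and dotted lines mark 1.5-fold. Of the 48 filled points, 32 lie above 0 for Qmimic and 33 for Dmimic.

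Among the fibrillar collagens, COL1A1, the main chain of collagen I, gave different pictures on its 5 probe sets. The probe set with the highest mean, 217430_x_at, read 7.14, 7.36 and 7.30 on the AllStar arrays, 7.40, 7.04 and 7.30 on the Qmimic arrays and 7.30, 7.23 and 7.38 on the Dmimic arrays, in log2 signal. The 3 groups overlapped fully. Its difference from AllStar was -0.02 (95% interval -0.27 to 0.23) for Qmimic and 0.03 (-0.21 to 0.28) for Dmimic, with exact two-sided permutation p of 1.0 and 0.7, where 0.1 is the smallest that 3 arrays against 3 allow. The suffix x marks a probe set whose probes may also match other transcripts.

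Probe sets 202310_s_at and 1556499_s_at of COL1A1 placed the 2 mimics on opposite sides of AllStar. On 202310_s_at the AllStar arrays read 5.76, 5.79 and 5.53, the Qmimic arrays 5.35, 5.30 and 5.12 and the Dmimic arrays 6.21, 6.15 and 6.85. Every Qmimic array was below every AllStar array, and every Dmimic array was above them. The log2 difference from AllStar was -0.44 for Qmimic and 0.71 for Dmimic, 0.49 without Dmimic replicate 3, and Qmimic was 1.15 below Dmimic (95% interval of Qmimic minus Dmimic -1.53 to -0.76; adjusted limma p 0.223), a 2.21-fold difference.

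On 1556499_s_at the AllStar arrays read 5.97, 5.98 and 5.34, the Qmimic arrays 4.88, 5.30 and 4.97 and the Dmimic arrays 6.06, 6.26 and 6.85. The order was again Qmimic below AllStar below Dmimic with no overlap, and Dmimic replicate 3 was the highest array on both probe sets. The difference from AllStar was -0.71 for Qmimic and 0.63 for Dmimic, which was 0.42 without AllStar replicate 3 and 0.40 without Dmimic replicate 3. Qmimic minus Dmimic was -1.34 (95% interval -1.85 to -0.83; adjusted limma p 0.457), a 2.53-fold difference. Without AllStar replicate 3, whose values do not enter the difference itself, the adjusted p of Qmimic against Dmimic was 0.0209 for 202310_s_at and 0.0174 for 1556499_s_at, so that both were called, where 0.0806% of all probe sets were. In that fit 1556499_s_at was also called lower in Qmimic than in AllStar, with a difference of -0.93 (adjusted limma p 0.0483), where 0.54% of all probe sets were called.

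Of the 126 matrix probe sets, these 2 (1.59%) were the ones with the mimics on opposite sides of AllStar and no overlap, a pattern found in 38 of all probe sets (0.0696%). Both belong to 1 gene, COL1A1, so they are not separate cases, and its leading probe set did not show the pattern. Across 24 alternative settings the difference between the mimics ranged from -1.28 to -0.92 on 202310_s_at and from -1.51 to -1.11 on 1556499_s_at. Leaving out arrays could not turn its sign, since the Qmimic and Dmimic arrays did not overlap on either. The adjusted p of this difference was under 0.05 in 4 of the settings for 202310_s_at and in 6 for 1556499_s_at. When 1 more array was left out beside AllStar replicate 3, it was under 0.05 in 2 of 8 cases for 202310_s_at and in 4 of 8 for 1556499_s_at. The other COL1A1 probe sets showed no such order: 202312_s_at read 5.93 to 6.15 on 8 arrays and 6.88 on AllStar replicate 3, and 202311_s_at read 3.0 to 3.42.

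**Figure D2:**
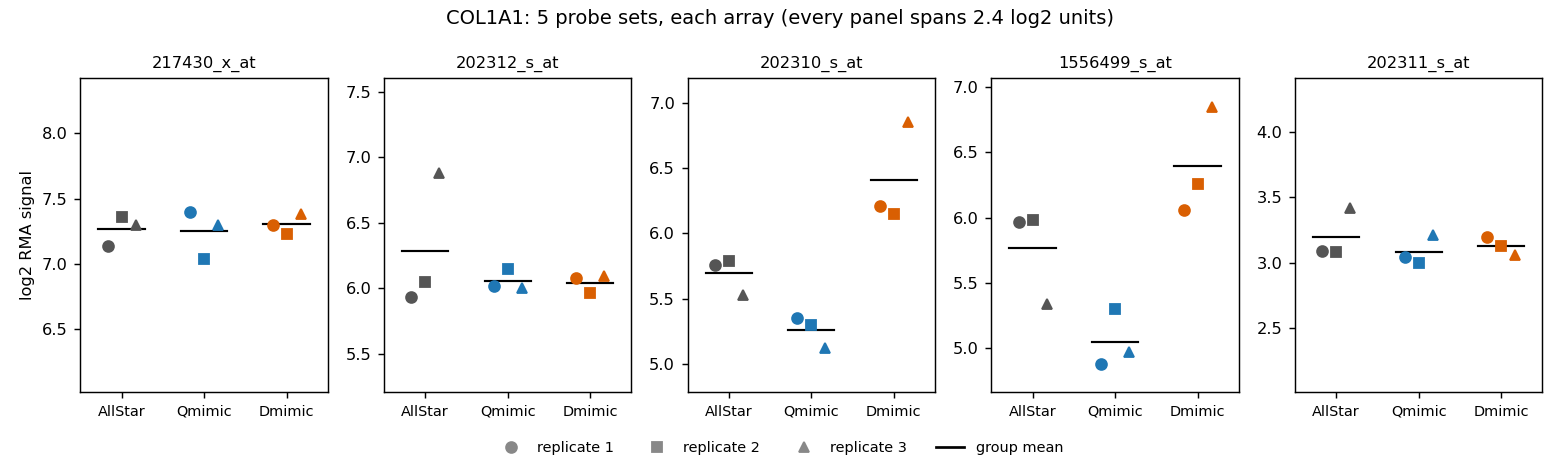
Log2 signal of the 5 COL1A1 probe sets on each of the 9 arrays, 1 panel per probe set, with lines at the group means and marker shapes for the replicate number. On 202310_s_at and 1556499_s_at the Qmimic arrays lie below and the Dmimic arrays above the AllStar arrays, and on 217430_x_at the groups overlap.

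COL1A2, the partner chain of COL1A1 in collagen I, was low in signal, at 5.27, 5.26 and 5.53 in AllStar, 5.05, 5.06 and 5.15 in Qmimic and 5.11, 5.18 and 5.05 in Dmimic. The mimic arrays lay below the AllStar arrays in both groups, with differences of -0.27 and -0.24 (adjusted limma p 0.259 and 0.344), and of -0.18 and -0.15 without AllStar replicate 3. Its other 2 probe sets overlapped between the groups. COL3A1, the chain of collagen III, lay near the floor of the arrays at 3.84 to 4.04. The median of the 7 fibrillar chains was -0.02 for Qmimic and -0.00 for Dmimic, 0.05 for each with centred array medians, and -0.00 and 0.05 without AllStar replicate 3.

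COL5A1, a chain of collagen V, which sits inside collagen I fibrils, had a higher mean after Dmimic than after AllStar on each of its 3 probe sets, by amounts that did not pass the test. Its leading probe set read 9.41, 9.22 and 9.54 in AllStar, 9.74, 9.57 and 9.41 in Qmimic and 9.65, 9.63 and 10.09 in Dmimic. The Dmimic arrays did not overlap with AllStar, and the Qmimic arrays did. The Dmimic difference was 0.40 (95% interval 0.07 to 0.73; adjusted limma p 0.309), and 0.67 and 0.90 on its other probe sets. Without Dmimic replicate 3 these were 0.25, 0.50 and 0.70. The Qmimic means were also above AllStar on the 3 probe sets, by 0.18, 0.48 and 0.71. Without AllStar replicate 3 the Qmimic differences were 0.26, 0.34 and 0.45. COL5A1 is named here because of its values. COL5A2, the other common chain of collagen V, lay near the floor, at 3.92 to 4.23.

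Among the basement membrane collagens, COL4A1, the main chain of collagen IV, read 8.91, 8.69 and 8.50 in AllStar, 9.53, 9.32 and 9.14 in Qmimic and 9.35, 9.25 and 9.99 in Dmimic. Every mimic array was above every AllStar array, and Dmimic replicate 3 stood highest. The difference was 0.63 for Qmimic (95% interval 0.20 to 1.06; adjusted limma p 0.223) and 0.82 for Dmimic (0.39 to 1.25; adjusted p 0.149), and without AllStar replicate 3 it was 0.53 and 0.72 (adjusted p 0.186 and 0.0829). That of Dmimic was 0.59 without Dmimic replicate 3 (adjusted limma p 0.564), no larger than that of Qmimic.

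COL4A2, which joins COL4A1 in the collagen IV triple helix, read 10.25, 10.19 and 10.08 in AllStar, 10.63, 10.44 and 10.32 in Qmimic and 10.32, 10.49 and 10.78 in Dmimic. Again no mimic array overlapped with AllStar. The difference was smaller, at 0.29 and 0.35 (adjusted limma p 0.303 and 0.309), and that of Dmimic was 0.23 without Dmimic replicate 3. Over the 6 basement membrane collagens the median was 0.24 for each mimic, 0.11 without AllStar replicate 3, and 0.10 and 0.16 after cyclic loess.

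COL4A1 and COL4A2 lie head to head on chromosome 13 and are transcribed in opposite directions from the short stretch between them. That stretch is shown because both genes were above AllStar on every mimic array. It is taken from RefSeq promoter sequences (GRCh38.p14, chr13:110307158-110307283, plus strand, reading from COL4A1 towards COL4A2), and capitals mark 3 motifs searched on both strands: CCAAT for the CCAAT box, GGGCGG for the GC box, and TATAAA for the TATA box.
between COL4A1 and COL4A2: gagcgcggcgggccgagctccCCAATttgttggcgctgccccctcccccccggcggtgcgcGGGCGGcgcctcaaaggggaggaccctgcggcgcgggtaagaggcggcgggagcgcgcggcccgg
Its 126 bases held 1 CCAAT, 1 GGGCGG and 0 TATAAA, and a GC content of 80.2%, against a median of 59.5% in windows of that length before the start sites of 27305 promoters. Of those windows, 21.9% held CCAAT, 34.6% GGGCGG and 6.23% TATAAA. In the 250 bases before the start site of the 38 matrix genes with a promoter sequence, GGGCGG was present in 27 (71.1%, against 42.3% of all promoters), CCAAT in 10 (26.3%, against 33.0%) and TATAAA in 4 (10.5%, against 11.1%). A match is a string of letters, not a measured binding site.

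Among the other collagens, COL8A1, a chain of the network-forming collagen VIII, had similar values after both mimics. It read 10.68, 10.74 and 10.19 in AllStar, 11.12, 11.16 and 10.99 in Qmimic and 11.11, 11.15 and 11.27 in Dmimic. Every mimic array was above every AllStar array, the mimics overlapped with each other, and AllStar replicate 3 was the lowest array. With all 9 arrays the difference was 0.55 and 0.64 (adjusted limma p 0.186 and 0.131). Without AllStar replicate 3 it was 0.38 for Qmimic (95% interval 0.20 to 0.55; adjusted p 0.046) and 0.47 for Dmimic (0.29 to 0.64; adjusted p 0.0221), below the 1.5-fold that a call needs. These values are from its leading probe set, and no other COL8A1 probe set had an adjusted limma p under 0.05 for either mimic in that fit.

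COL13A1 encodes a collagen that spans the plasma membrane. Its leading probe set read 11.94, 12.06 and 11.48 in AllStar, 12.42, 12.37 and 12.22 in Qmimic and 12.19, 12.22 and 12.49 in Dmimic. Both mimics lay above AllStar without overlap, and they overlapped with each other. The difference was 0.51 and 0.48 (adjusted limma p 0.217 and 0.251), and 0.34 and 0.30 without AllStar replicate 3 (adjusted p 0.119 and 0.149). Without that array, Dmimic was 0.50 and 0.46 above AllStar on its other 2 probe sets (adjusted p 0.0342 and 0.0484).

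Collagen VI forms beaded filaments around cells. Its chain COL6A1 read 8.15, 8.12 and 8.06 in AllStar, 8.33, 8.2 and 8.19 in Qmimic and 8.32, 8.36 and 8.81 in Dmimic. Both mimics lay above AllStar without overlap, and they overlapped with each other. The differences were 0.13 and 0.39 (adjusted limma p 0.556 and 0.265), and that of Dmimic was 0.23 without Dmimic replicate 3. COL6A3 read 8.84, 8.96 and 8.16 in AllStar, 9.22, 9.01 and 8.94 in Qmimic and 9.10, 8.94 and 9.61 in Dmimic, so that both mimics overlapped with AllStar. Its differences of 0.40 and 0.56 were 0.16 and 0.31 without AllStar replicate 3, and that of Dmimic was 0.36 without Dmimic replicate 3. COL6A2, the remaining collagen VI chain among the 48 genes, differed by 0.06 and 0.12, and for Qmimic by 0.09 without AllStar replicate 3.

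Laminins are crosses of an alpha, a beta and a gamma chain. LAMB1, a beta chain, read 8.31, 8.29 and 7.47 in AllStar, 8.63, 8.58 and 8.45 in Qmimic and 8.52, 8.44 and 8.83 in Dmimic. No mimic array overlapped with AllStar, of which replicate 3 lay far below the others. The difference of 0.53 and 0.57 (adjusted limma p 0.273 and 0.302) was 0.26 and 0.30 without that array.

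LAMC1, the gamma chain that most laminins share, read 10.50, 10.52 and 10.25 in AllStar, 10.55, 10.66 and 10.58 in Qmimic and 10.80, 10.77 and 10.94 in Dmimic. The 3 groups followed each other without overlap. The Dmimic difference was 0.41 (95% interval 0.19 to 0.63; adjusted limma p 0.155) and the Qmimic difference 0.18 (adjusted p 0.367), which was 0.09 without AllStar replicate 3. LAMB3, a chain of the laminin of epithelial anchoring sites, overlapped between the groups with all 9 arrays, at -0.06 and -0.10. Without AllStar replicate 3 both mimics lay below AllStar without overlap, at -0.17 and -0.22 (adjusted limma p 0.352 and 0.246), and without Dmimic replicate 3 the Dmimic difference was -0.04.

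HSPG2, which encodes the basement membrane proteoglycan perlecan, read 8.58, 8.49 and 8.40 in AllStar, 8.87, 8.70 and 8.78 in Qmimic and 8.81, 8.89 and 9.18 in Dmimic. No mimic array overlapped with AllStar, and the Dmimic difference was 0.47 (95% interval 0.22 to 0.72; adjusted limma p 0.149). LAMA4, an alpha chain with a weak signal, lay lower, at 5.29, 5.41 and 5.61 in AllStar, 5.28, 4.92 and 5.17 in Qmimic and 5.19, 5.28 and 5.19 in Dmimic (-0.31 and -0.22; adjusted p 0.264 and 0.446), and its Dmimic difference was -0.14 without AllStar replicate 3. Over the 9 laminins and linkers the median was 0.20 for Qmimic and 0.40 for Dmimic, 0.09 and 0.26 without AllStar replicate 3, and 0.03 and 0.23 after cyclic loess.

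FBN1 encodes fibrillin-1, the backbone of the microfibrils on which elastin is laid down and latent TGF-beta is stored. It read 8.0, 8.0 and 7.20 in AllStar, 8.56, 8.41 and 8.45 in Qmimic and 8.39, 8.43 and 8.63 in Dmimic. The mimic arrays lay within a narrow range, all above AllStar. The difference was 0.74 and 0.75 (adjusted limma p 0.19 and 0.177), and 0.47 and 0.48 without AllStar replicate 3 (adjusted p 0.028 and 0.025; 95% intervals 0.28 to 0.66 and 0.29 to 0.67), which is 1.39-fold for each mimic and short of a call. Its other 2 probe sets were 0.45 and 0.22 higher for Qmimic and 0.53 and 0.31 higher for Dmimic, and the first of them was 0.28 higher for Qmimic without AllStar replicate 3.

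**Figure D3:**
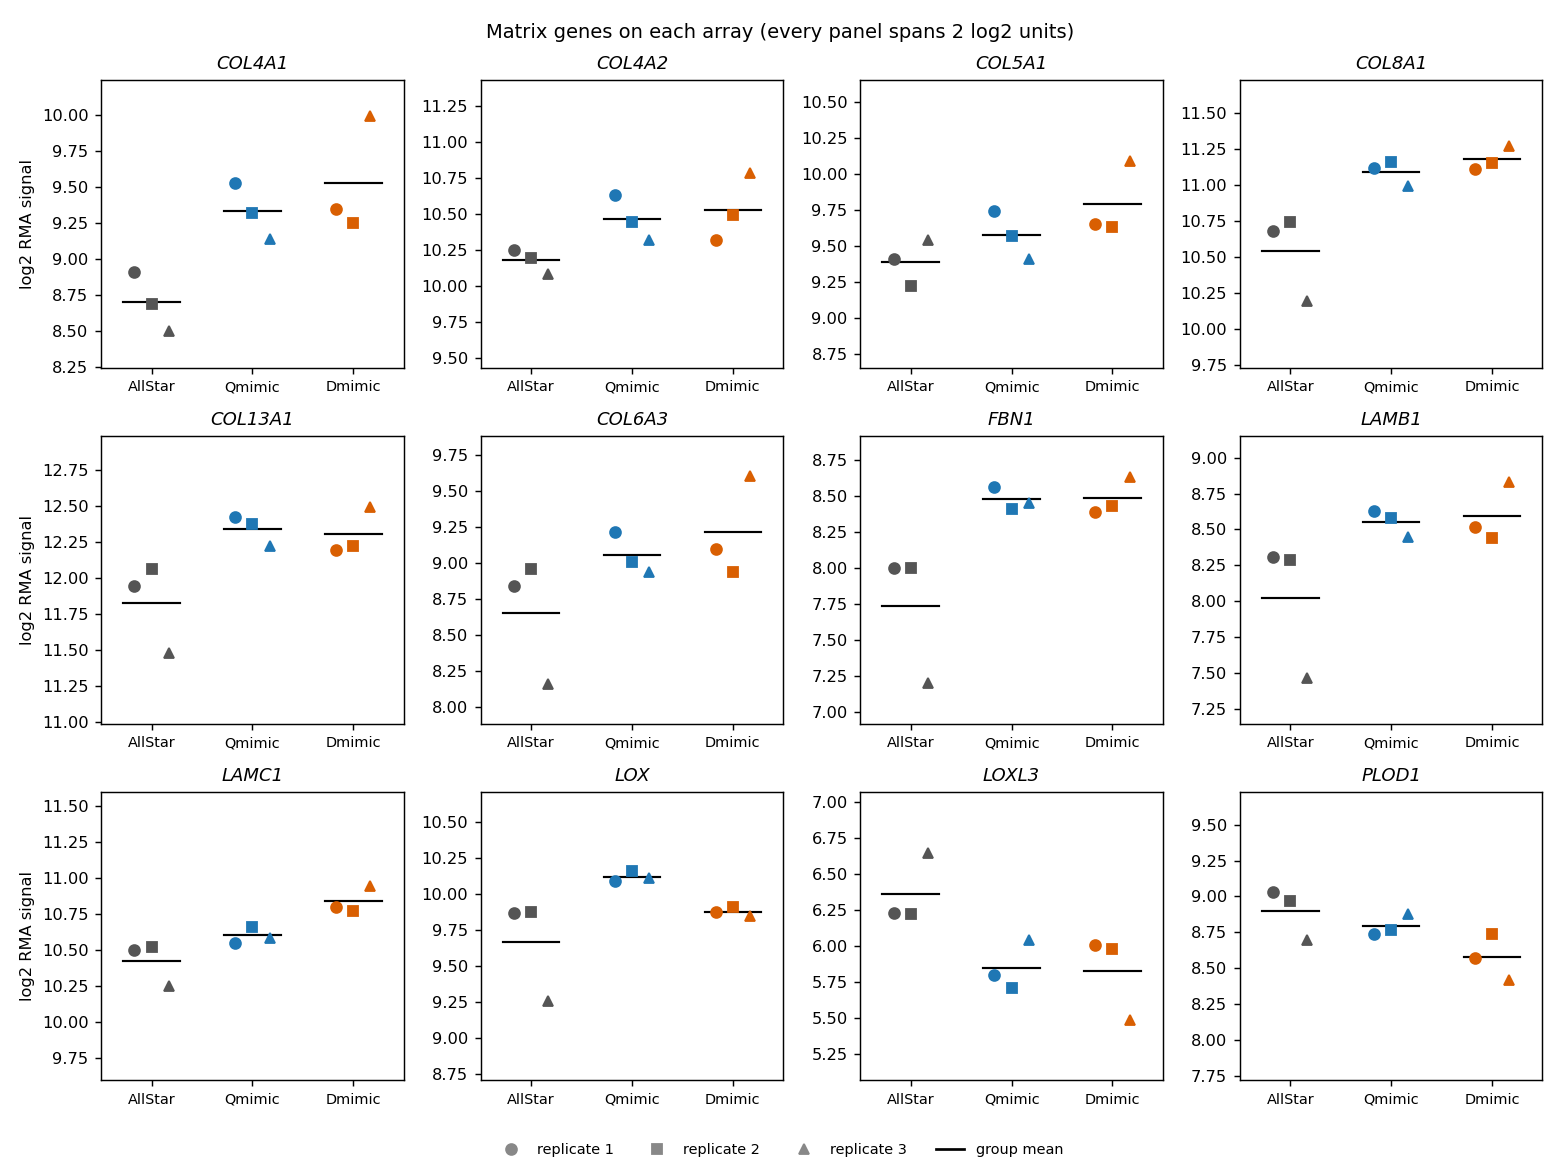
Log2 signal of 12 matrix genes on each of the 9 arrays, 1 panel per gene, with lines at the group means and marker shapes for the replicate number. AllStar replicate 3 (grey triangle) is the lowest array for COL4A1, COL4A2, COL8A1, COL13A1, COL6A3, FBN1, LAMB1, LAMC1 and LOX, and Dmimic replicate 3 (orange triangle) is the highest for COL4A1, COL4A2, COL5A1, COL8A1, COL13A1, COL6A3, FBN1, LAMB1 and LAMC1.

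Lysyl oxidases join collagen chains outside the cell. LOX, the founding lysyl oxidase, read 9.87, 9.88 and 9.26 in AllStar, 10.09, 10.16 and 10.11 in Qmimic and 9.88, 9.91 and 9.85 in Dmimic. Qmimic lay above both other groups without overlap, while Dmimic overlapped with AllStar. The Qmimic difference was 0.45 (adjusted limma p 0.239), and without AllStar replicate 3 it was 0.24 (95% interval 0.10 to 0.38; adjusted p 0.0806). The other 2 LOX probe sets did not show this: Qmimic minus AllStar was 0.15 and -0.06 on them, and -0.07 and -0.29 without AllStar replicate 3.

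LOXL3, a lysyl oxidase-like enzyme, lay lower after both mimics. It read 6.23, 6.22 and 6.65 in AllStar, 5.80, 5.71 and 6.04 in Qmimic and 6.01, 5.98 and 5.49 in Dmimic, with no overlap between the mimics and AllStar. The difference was -0.52 and -0.54 (adjusted limma p 0.233 and 0.25), and -0.37 and -0.39 without AllStar replicate 3 (adjusted p 0.216 and 0.199). The median of the 5 lysyl oxidases was 0.12 for Qmimic and 0.05 for Dmimic, and it turned to -0.05 and -0.11 after cyclic loess. It was 0.16 and -0.02 without AllStar replicate 3.

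Inside the cell, PLOD1 acts as a lysyl hydroxylase that prepares collagen for crosslinking. It read 9.03, 8.97 and 8.70 in AllStar, 8.74, 8.77 and 8.88 in Qmimic and 8.57, 8.74 and 8.42 in Dmimic. AllStar replicate 3 overlapped with Dmimic, and the other AllStar replicates did not. The Dmimic difference was -0.32 with all arrays (adjusted limma p 0.302) and -0.42 without AllStar replicate 3 (adjusted p 0.0462). Over the 7 genes of collagen modification and folding the median was 0.13 and 0.14, and it turned to -0.04 and -0.02 after cyclic loess. It was 0.09 and 0.06 without AllStar replicate 3.

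Between the mimics, Qmimic lay above Dmimic without overlap in 5 of the 48 genes, where 8.12% of all genes did: COL27A1, LOX, LOXL4, PLOD1 and PLOD2. It lay below in 3, COL5A2, COL16A1 and LAMC1, where 9.4% did. Counted over all 126 matrix probe sets the balance was the other way, with Qmimic above Dmimic in 7 and below in 17. Of all 54613 probe sets, 3883 lay above and 4889 below. The differences of LOX, PLOD1 and LOXL4 were 0.24, 0.22 and 0.18, and those of LAMC1, COL16A1 and COL5A2 -0.24, -0.18 and -0.11. Their adjusted limma p with all arrays was 1.0 each, and their 95% intervals reached from -0.10 to 0.57 for LOX and from -0.46 to -0.02 for LAMC1. The median Qmimic minus Dmimic over the 48 genes was -0.05, with 16 genes above 0. Without Dmimic replicate 3 it was 0.00, with 24 above 0.

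Dmimic replicate 3 was the highest of the 9 arrays in 19 of the 48 genes, while over all genes it was the highest in 14.7%. It lay above the mean of Dmimic replicates 1 and 2 in 31 of the 48 genes, with a median distance of 0.09, against 53.3% of all genes and 0.01. Among the 38 better expressed matrix genes it did so in 26, with a median of 0.13, against 53.5% of all better expressed genes and 0.01. It did so in 15 of the 21 collagen chains, with a median of 0.14, and in 12 of the 15 better expressed ones, with a median of 0.25. AllStar replicate 3 was the lowest array in 26 of the 48 genes, against 40.2% of all genes. In no matrix gene was Qmimic replicate 3 the highest, and over all genes it was the highest in only 2.99%.

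**Figure D4:**
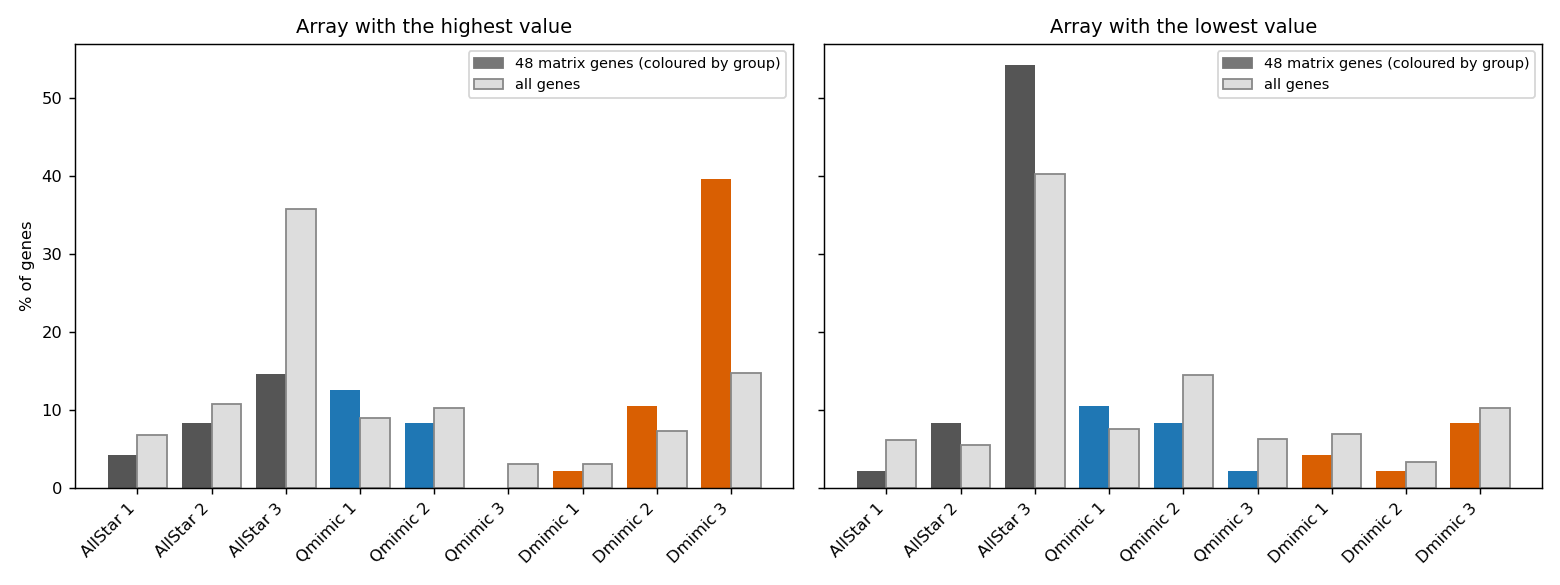
Share of genes, in percent, for which each of the 9 arrays holds the highest value (left) or the lowest value (right), for the 48 matrix genes (bars coloured by group) and for all 19775 genes (light bars). Dmimic replicate 3 is highest in 19 matrix genes and AllStar replicate 3 is lowest in 26.

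Of 100 further matrix genes measured (other collagen chains, collagen processing, basement membrane genes, matrix glycoproteins and collagen receptors), 0 were called with all 9 arrays on any of their 253 probe sets. Without AllStar replicate 3, 1 was called on its leading probe set, for both mimics together. That gene was NTN4, which encodes netrin-4, a protein that binds laminin gamma chains. It read 7.79, 7.76 and 6.64 in AllStar, 8.61, 8.64 and 8.24 in Qmimic and 8.43, 8.30 and 8.97 in Dmimic. The mimics lay above AllStar without overlap, by 1.14 on average (adjusted limma p 0.092), and by 0.76 without AllStar replicate 3 (adjusted p 0.0364). THBS1, the matrix glycoprotein thrombospondin-1, was 0.45 higher after Qmimic and 0.71 after Dmimic (adjusted p 0.241 and 0.125) on its leading probe set, and 0.27 and 0.53 without AllStar replicate 3 (adjusted limma p 0.162 and 0.0238), which is short of 1.5-fold. Other THBS1 probe sets, looked at after the data were seen, were called in that fit: 3 for Dmimic, where 0.864% of all probe sets were, with differences of 0.70, 0.74 and 1.59, 1 for both mimics together (0.721%) and 1 between the mimics (0.0806%). None was called for Qmimic. Qmimic minus AllStar on the other THBS1 probe sets was -0.28, -0.06, 0.03, 0.07, 0.08 and 0.54 in that fit. ITGA2, a chain of a collagen-binding integrin, was 0.47 and 0.34 higher (adjusted p 0.189 and 0.293), and 0.34 and 0.21 without AllStar replicate 3.

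The medians of these further lists lay near or below 0 with all 9 arrays. The median of the 22 other collagen chains was -0.12 for Qmimic and -0.09 for Dmimic, that of 13 further basement membrane genes -0.14 and -0.13, and that of 34 further glycoproteins -0.08 and -0.00. The median of 23 genes of collagen processing was -0.00 and -0.03, and that of 8 collagen receptors 0.04 and 0.04. With AllStar replicate 3 left out, these medians lay between -0.06 and 0.04: -0.02 and -0.00 for the collagen chains, -0.06 and 0.01 for the basement membrane genes, 0.01 and 0.04 for the glycoproteins, -0.02 and -0.02 for collagen processing and 0.03 and 0.02 for the receptors. In these lists COL23A1, a membrane collagen, was -0.50 and -0.09, COL4A4, a collagen IV chain, -0.43 and -0.23, P3H1, a prolyl hydroxylase, 0.26 and 0.21, and SLC39A13, a zinc transporter, 0.22 and 0.25. FRAS1, a basement membrane protein, was 0.44 and 0.51 higher, MATN2, a matrilin, 0.56 and 0.49, and CD44, a hyaluronan and collagen receptor, 0.20 and 0.21, and none of these was called. With AllStar replicate 3 left out, the values were -0.24 and -0.03 for COL4A4, -0.41 and -0.01 for COL23A1, 0.13 and 0.16 for SLC39A13, 0.23 and 0.31 for FRAS1 and 0.37 and 0.30 for MATN2.

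The labelled cell line was checked against marker genes. All 8 markers of mesenchymal-like breast cancer lines had strong signal, with group means of 10.36 to 13.69. Of the 10 luminal markers, 4 had a mean signal below the median of all probe sets and the rest did not. PGR, CDH1 and FOXA1 had mean signals of 4.05, 3.67 and 3.94, while KRT8 and KRT18 had 10.67 and 12.55. Over the 10 luminal markers the median of the group means was 7.47 in AllStar, 7.45 in Qmimic and 7.36 in Dmimic. The summed log2 signal of 8 fibroblast markers was 44.29 to 47.66 in AllStar, 44.13 to 44.32 in Qmimic and 44.13 to 44.65 in Dmimic, and its part in the differences above was not tested. The median log2 difference of these markers from AllStar was -0.17 for Qmimic and -0.16 for Dmimic, and -0.01 and 0.03 without AllStar replicate 3. The AllStar sums also reached highest for 6 endothelial markers, at 33.65 against 32.07 and 32.22 in the mimics. For 4 leukocyte markers they reached 20.13 against 19.26 and 19.39. Over all genes below the median level, AllStar replicate 3 lay 0.22 above the mean of replicates 1 and 2 in the median.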

How the data were processed

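RNA of 9 wells was measured on Affymetrix HG-U133 Plus 2.0 arrays. Each value is a log2 signal of 1 probe set as deposited by the authors, and RMA and limma are named in the submitters' processing notes, with no version. The deposited arrays do not have equal distributions, and no value was rescaled in the main model. Arrays give no read depth, and 3 per group limit the precision.

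Leaving out 62 controls, 54613 probe sets were tested, whatever their signal. Of these, 41091 had 1 gene symbol, 1801 several and 11721 none. In limma 3.58.1 (R 4.3.3) 1 model with 3 groups was fitted to all probe sets, with eBayes statistics and Benjamini-Hochberg adjustment over the 54613. A call needed an adjusted p under 0.05 and 1.5-fold. The model was tested on simulated data.

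The members and lists were chosen with earlier results of these data known. The text names the matrix genes with the largest differences without overlap between arrays (6 each way per mimic, 3 each way between mimics), any called gene, partner chains, all COL1A1 probe sets, and the 2 genes with the smallest p in each further list. Alternatives were a replicate block, each array left out, other scaling, array weights, other eBayes settings and other thresholds.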

Additional observations from a re-analysis of the deposited data

Results flagged for a closer look

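Both COL1A1 probe sets with opposite differences in the mimics met the rule for a contrast whose effect differs between groups, by limma's direct test of Qmimic against Dmimic without AllStar replicate 3. The log2 difference, Qmimic minus Dmimic, was -1.34 on 1556499_s_at and -1.15 on 202310_s_at. With all 9 arrays neither had an adjusted p under 0.05, and the probe set of COL1A1 with the highest mean showed no difference of this kind.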

How the results depend on the processing

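No matrix gene was called in the fit with all 9 arrays, and few were under the alternatives. Array quality weights called 1 gene, COL4A1, for Qmimic, for Dmimic and for both mimics together. These weights came from a fit that stopped before it converged. They were 0.90, 5.17 and 0.06 for AllStar replicates 1, 2 and 3, so that the AllStar mean rested mostly on replicate 2. Cyclic loess called 1 gene, FBN1, for both mimics together. When a gene could be called by any of its probe sets and AllStar replicate 3 was left out, a choice made after the data were seen, 1 gene, COL1A1, was called lower for Qmimic and lower in Qmimic than in Dmimic. Leaving out any 1 of the 9 arrays called 0 matrix genes by their leading probe set in each of the 4 comparisons.

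Counts over all probe sets varied more. For Qmimic, 0 were called with all arrays, 63 after repeated quantile normalisation, 129 after cyclic loess, 594 with array weights and 0 to 295 with 1 array left out. For Dmimic, 3 were called with all arrays, 103, 234 and 696 under the same settings, 12 with trend and robust eBayes, 6 among probe sets above the median level, 0 at a log2 change of 1.5 and 0 to 472 with 1 array left out. For both mimics, 44 became 244, 374 and 546, 0 with centred medians, 72 with trend and robust eBayes, 133 among probe sets above the median level, 5 at a log2 change of 1.5 and 0 to 394 with 1 array left out. Between the mimics, 0 became 15, 15 and 58, and 0 to 44. The upper ends came from leaving out AllStar replicate 3.

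The main model did not pair the arrays by replicate number. Residuals of arrays with the same number correlated above 0.1 in 3 of 9 pairs (range -0.28 to 0.22). With 3 arrays per group these correlations cannot show whether the replicates were run as matched sets. With the replicate block, 1 probe set was called for Qmimic, 0 for Dmimic, 1 for both and 0 between the mimics, and 0 matrix genes.

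For single genes, 643 of 682 values moved by less than the spread between replicates or kept their call, 27 moved by more and 12 passed the threshold anew, and none that was called changed sign. The median of the 48 genes for Qmimic was 0.05 after repeated quantile normalisation and 0.02 after cyclic loess, and for Dmimic 0.10 under each.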
